A study of Homo sapiens with 2 samples.

Results

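AHNAK, AHNAK2, 4 plakins (PLEC, DSP, PPL and EPPK1), 2 spectraplakins (DST and MACF1) and 2 giant nesprins (SYNE1 and SYNE2) encode some of the largest scaffold proteins of the cell. These 10 genes of the 60612 in the deposited gene table were taken by symbol, and each symbol had a single entry. The set was built around AHNAK because its FPKM (fragments per kilobase of exon, scaled to library size) was known to be far lower in the treated library. The D16 and control FPKM values therefore chose the set, and their differences are given here as a description. RNA-seq had been carried out on MDA-MB-231 cells, an established human triple-negative breast cancer line. In the D16 group the cells received 24 µM of the compound D16 for 48 h, and in the control group they grew in normal medium, with no vehicle named in the labels. Both groups shared the same line, serum and antibiotics, and each was 1 library. No difference below has a replicate check, and no test between the conditions was possible. In bulk RNA, fewer cells of a type and less RNA per cell cannot be told apart.

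AHNAK is a very large protein that lies beneath the plasma membrane and binds the S100A10 and annexin A2 complex and actin; AHNAK2 is its close relative. Plakins tie intermediate filaments to cell junctions: plectin at hemidesmosomes and focal adhesions, desmoplakin and periplakin at desmosomes. Dystonin and MACF1 are spectraplakins, which join actin filaments to microtubules. Nesprins cross the outer nuclear membrane and bind the cytoskeleton on its outer side and SUN proteins on its inner side, between the nuclear membranes.

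AHNAK was the member with by far the lowest ratio in the D16 library, PLEC and PPL were also at least 2-fold lower, and no member was 2-fold higher. AHNAK stood at 1.34 FPKM in D16 and 72.4 FPKM in control. The difference used throughout is log2((D16 FPKM + 1) / (control FPKM + 1)), which understates changes of low genes. Of the 10 members, 8 passed a filter of a mean of at least 1 FPKM, and of these 3 lay 2-fold or more below control and 0 that far above it. The same held for 3.97% (below) and 3.63% (above) of all 11830 genes that passed. At 1.5-fold the counts were again 3 and 0, beside 11% and 13.2% of all genes that passed and 10.4% and 13.1% of the protein-coding ones. Since the set was chosen on this contrast, nothing is read from the comparison of those shares. The median difference of the 8 members was -0.51, and -0.50 without AHNAK, beside 0.08 for all genes that passed. SYNE2, with a mean of 1.23 FPKM, lay just inside the filter and SYNE1, with 0.539 FPKM, lay outside it with EPPK1.

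**Figure D1:**
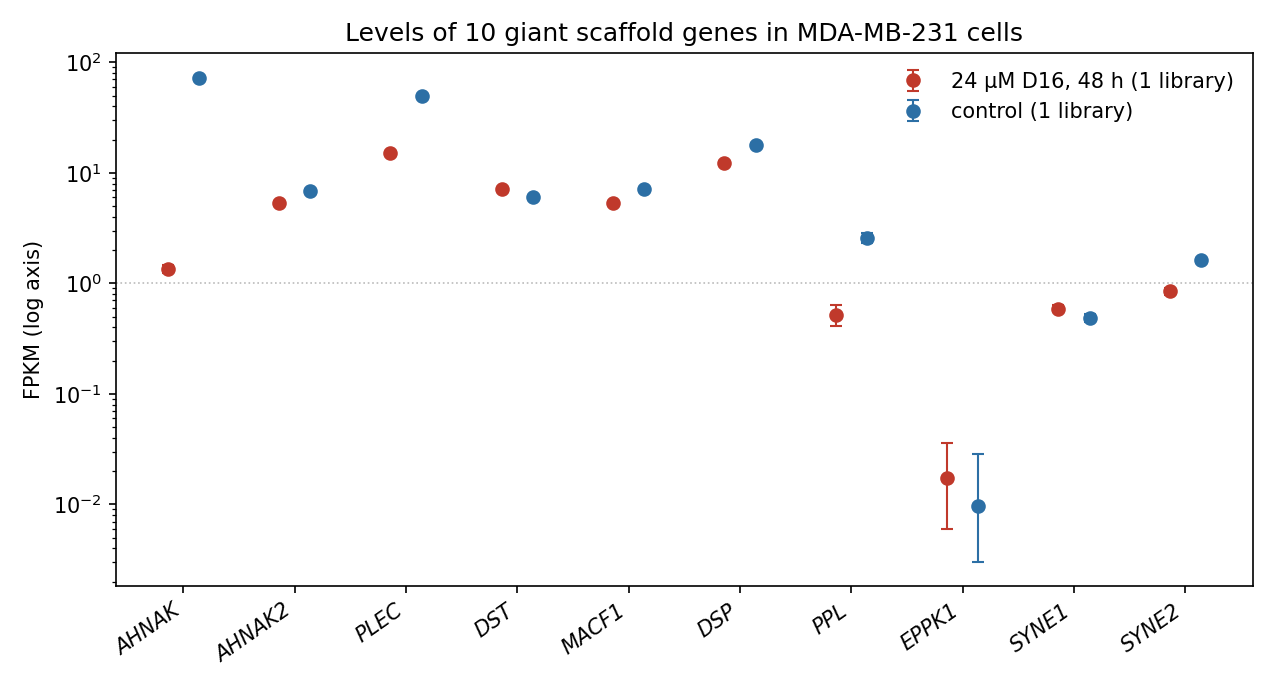
FPKM (log axis) of the 10 genes in the D16 library (red, left) and the control library (blue, right), 1 library each; bars are 95% Poisson intervals that cover counting error only and are often smaller than the points. AHNAK is the highest of the 10 in control (72.4 FPKM) and the sixth of the 10 in D16 (1.34 FPKM); PLEC is the highest in D16 (15.1 FPKM).

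The libraries were of similar depth, with 73303902 counts in D16 and 72108404 in control. About 4 of the deposited counts correspond to 1 read pair, so all intervals below were computed on read pairs, at 95%. They cover counting error only. Markers of the line were present: CD44 was at 25.6 FPKM in both libraries and AXL at 192 FPKM in D16 and 196 FPKM in control. Of all 6 line markers, 4 differences were below 0 and 2 above. CAV1 stood at 73.7 FPKM in D16 and 55.1 FPKM in control, S100A4 at 71.1 FPKM in D16 and 174 FPKM in control, PLAU at 66.2 and 135 FPKM, and VIM at 259 and 502 FPKM. Of 6 luminal epithelial markers, 2 passed the filter (EPCAM at 1.55 FPKM in D16 and 2.79 in control, GATA3 at 1.25 and 2.43), and PGR was listed at 0 in both. The summed FPKM of 8 fibroblast markers was 5.33 in D16 and 6.59 in control, with COL1A1 at 2.46 and 2.72. Of 7 blood markers only CD68 passed the filter (75.5 FPKM in D16, 61.6 in control), while CD3E and HBB were listed at 0 in both.

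AHNAK (ENSG00000124942, chr11:62433542-62556235, minus strand) was represented by 2300 counts in D16 and 119095 in control, or about 575 and 29774 read pairs. Its FPKM was 53.9-fold lower in D16 (95% counting interval 49.6 to 58.6), a difference of -4.97. With intervals of 1.23 to 1.46 FPKM in D16 and 71.6 to 73.2 FPKM in control, the libraries were far apart on counting error alone. Among the genes that passed the filter, 1 had a lower difference, the 85-base microRNA locus MIR1244-1 (1 count in D16, 1766 in control), and no protein-coding gene did. MIR1244-1, and EEF1A1 below, were named after their values were seen. AHNAK held 0.00314% of all counts in D16 and 0.165% in control. Only 1 nuclear protein-coding gene lost more counts, the abundant translation elongation factor EEF1A1 (629673 counts in D16, 810816 in control), and its difference was -0.42. The authors' deposited table of genes headed Down gives AHNAK as its first entry, and the authors' deposited table of gene groups names AHNAK and PLEC under focal adhesion.

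AHNAK2 (ENSG00000185567, chr14:104937244-104970481, minus strand) has nearly the same make-up as AHNAK and a much smaller difference. Its longest transcript is 18335 bp with 97.6% of its length in 1 exon, beside 18787 bp and 96.7% for AHNAK. AHNAK2 stood at 5.37 FPKM in D16 and 6.82 FPKM in control, from 8866 and 10831 counts. That is 1.27-fold lower (1.20 to 1.34), a difference of -0.30. The 2 genes were thus an order of magnitude apart in control, and in D16 AHNAK2 was the higher of them.

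Both messages are built from repeats, which are shown here because they are what the pair share and because repeated sequence can blur read placement. The 30-base words printed are the most repeated of each longest transcript (GENCODE 29, GRCh38), given 5′ to 3′ on the gene's strand at 1 of their copies, AHNAK at chr11:62531780-62531809 and AHNAK2 at chr14:104953405-104953434; all copies lay in coding exons.
AHNAK repeat: ggcccagactggcacctgaagatgcccaag
AHNAK2 repeat: agcaagttcaaaatgcccaagttcaagatg
The AHNAK word occurred 9 times and the AHNAK2 word 18 times, with 768 and 495 bases as the most common distance between neighbouring copies. Of all 30-base words, 19.6% in AHNAK and 28.2% in AHNAK2 occurred more than once. At the length of 1 read, 150 bases, only 0.0322% of AHNAK windows and none of AHNAK2 were repeated, and none of the 45 pairs of members shared a window of that length.

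The region around the start of AHNAK is printed beside those of AHNAK2, its relative with a small difference, and DST, the only member that passed the filter with a value above 0. Each runs from 250 bases before to 50 bases after the start that RefSeq gives (GRCh38.p14, minus strand, chr11:62545777-62546076, chr14:104978325-104978624 and chr6:56954781-56955080). None of these starts is the start of the deposited gene. The AHNAK region lies inside the deposited gene, which ends at 62556235. Those of AHNAK2 and DST lie beyond the deposited ends at 104970481 and 56954649. Capitals mark matches on either strand to 4 motifs: AP-1 (TGANTCA), TEAD (GGAATG), the SP1 GC box (GGGCGG) and the core of the antioxidant response element (TGACNNNGC).
AHNAK promoter: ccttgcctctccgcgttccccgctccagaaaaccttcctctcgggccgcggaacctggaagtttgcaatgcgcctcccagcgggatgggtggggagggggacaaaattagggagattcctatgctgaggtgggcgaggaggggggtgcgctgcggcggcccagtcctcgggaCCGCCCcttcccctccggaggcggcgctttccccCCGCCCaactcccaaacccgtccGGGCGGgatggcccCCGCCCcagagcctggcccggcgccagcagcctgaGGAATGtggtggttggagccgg
AHNAK2 promoter: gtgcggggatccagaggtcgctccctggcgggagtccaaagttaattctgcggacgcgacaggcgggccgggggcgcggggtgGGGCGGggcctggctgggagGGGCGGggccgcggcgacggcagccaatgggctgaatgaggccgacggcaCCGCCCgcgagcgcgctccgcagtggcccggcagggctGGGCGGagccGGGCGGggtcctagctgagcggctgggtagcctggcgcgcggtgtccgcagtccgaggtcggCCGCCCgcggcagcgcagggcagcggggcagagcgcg
DST promoter: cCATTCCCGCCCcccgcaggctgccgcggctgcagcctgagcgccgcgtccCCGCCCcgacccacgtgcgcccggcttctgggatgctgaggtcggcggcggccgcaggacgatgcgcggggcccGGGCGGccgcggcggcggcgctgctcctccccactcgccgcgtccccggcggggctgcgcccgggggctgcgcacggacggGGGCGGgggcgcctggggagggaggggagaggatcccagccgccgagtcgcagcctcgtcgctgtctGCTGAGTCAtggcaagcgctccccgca
The AHNAK sequence held 4 GC boxes and 1 TEAD match just after the start, and no AP-1 or antioxidant response match. AHNAK2 held 6 GC boxes and none of the other motifs. DST held 4 GC boxes, 1 of them overlapping its TEAD match, and an AP-1 match overlapping its antioxidant response match. Among 35116 RefSeq promoters of this length, 45.0% held a GC box, 14% a TEAD match, 13.3% an antioxidant response match and 7.71% an AP-1 match. Promoters were found for 7 of the 10 members; of the others of these, DSP held 8 GC boxes, SYNE2 4, SYNE1 an antioxidant response match and MACF1 no match. A match is a description of the letters, and no binding was measured.

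PLEC, plectin, was the most abundant plakin and the second member by control level. The gene (ENSG00000178209, chr8:143915147-143976734, minus strand; 32 exons, longest transcript 15249 bp) stood at 15.1 FPKM in D16 and 49.4 FPKM in control, from 22602 and 70979 counts. Its FPKM was 3.27-fold lower in D16 (3.17 to 3.37), a difference of -1.64. Of the 11830 genes that passed the filter, 126 had a lower difference, so the value is far down the range but not alone there. In D16, PLEC was the most abundant of the 10 members.

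PPL, periplakin (ENSG00000118898, chr16:4882507-4937148, minus strand), is the shortest message of the set at 6238 bp and a low one. It stood at 0.517 FPKM in D16 and 2.58 FPKM in control, from 352 and 1681 counts, about 88 and 420 read pairs. Its FPKM was 4.99-fold lower in D16 (3.94 to 6.32), while the pseudocount of 1 FPKM brought the difference to -1.24. With a pseudocount of 5 FPKM it was -0.46, so whether PPL counts as 2-fold lower depends on the pseudocount. The authors' deposited table of gene groups names PPL and PLEC under wound healing.

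DSP, desmoplakin, the plakin of desmosomes, differed less. The gene (ENSG00000096696, chr6:7541617-7586714, plus strand; 24 exons, 9796 bp) stood at 12.2 FPKM in D16 and 17.8 FPKM in control, from 10807 and 15144 counts. It was 1.46-fold lower in D16 (1.39 to 1.53), a difference of -0.51. EPPK1, epiplakin (ENSG00000261150, chr8:143857324-143878467, minus strand), is the next gene of the set to PLEC, 36679 bases away on the same strand. EPPK1 had 25 counts in D16 and 14 in control, 6 and 4 read pairs, at 0.0172 and 0.00973 FPKM. The ratio of 1.76 had an interval of 0.342 to 6.95, so no difference of EPPK1 was detectable at this depth. Of its 150-base windows, 42.2% occurred more than once within the message, and reads placed there are uncertain. Among the 4 plakins the order of ratios was thus PPL and PLEC, then DSP, with few read pairs of EPPK1 in either library.

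**Figure D2:**
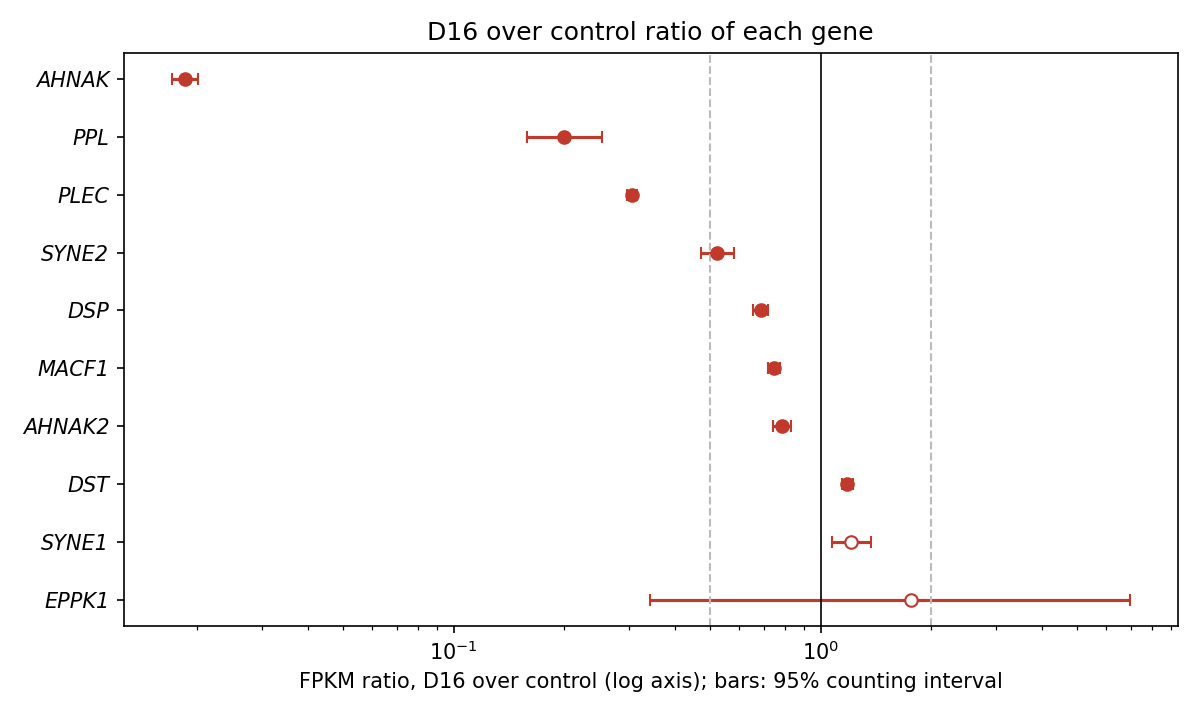
Ratio of D16 to control FPKM (log axis) of each gene with its 95% counting interval; dashed lines mark 2-fold and open circles the 2 genes that failed the filter. AHNAK lies apart from PPL and PLEC, SYNE2 lies at the 2-fold line (1.91-fold lower, 1.73 to 2.11), and the interval of EPPK1 spans 1.

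The spectraplakins lay on opposite sides of 0. DST, dystonin (ENSG00000151914, chr6:56457987-56954649, minus strand; 98 exons, 22431 bp), stood at 7.19 FPKM in D16 and 6.07 FPKM in control, from 30257 and 24594 counts. The ratio was 1.18 (1.14 to 1.22) and the difference 0.21, which made DST the only member that passed the filter with a higher value in D16. MACF1 (ENSG00000127603, chr1:39081316-39486987, plus strand; 101 exons, 24828 bp) stood at 5.34 FPKM in D16 and 7.14 FPKM in control, from 20066 and 25806 counts. It was 1.34-fold lower (1.29 to 1.39), a difference of -0.36. The counting intervals of these close relatives did not overlap, DST above 1 and MACF1 below it.

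The nesprins were low in both libraries. SYNE2 (nesprin-2, ENSG00000054654, chr14:63761899-64226433, plus strand; 116 exons, 21842 bp) stood at 0.844 FPKM in D16 and 1.61 FPKM in control, from 2407 and 4421 counts. Its FPKM was 1.91-fold lower in D16 (1.73 to 2.11), with a difference of -0.50 on the scale with the pseudocount. SYNE1 (nesprin-1, ENSG00000131018, chr6:152121684-152637399, minus strand; 146 exons) has the longest message of the set, 27748 bp. It stood at 0.591 FPKM in D16 and 0.488 FPKM in control, from 2434 and 1930 counts. The SYNE1 ratio was 1.21 (1.07 to 1.37), on the other side of 1 from SYNE2. Its difference of 0.10 became -0.05 when differences were centred on the median of genes averaging at least 5 FPKM, which was 0.15.

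In D16 the members ranked by FPKM as PLEC, DSP, DST, AHNAK2 and MACF1, AHNAK, SYNE2, SYNE1, PPL and EPPK1. AHNAK2 (5.15 to 5.60 FPKM) and MACF1 (5.19 to 5.49 FPKM) did not differ beyond counting error there. The intervals of SYNE1 (0.545 to 0.640 FPKM) and PPL (0.415 to 0.637 FPKM) in D16 overlapped too. In control the order was AHNAK, PLEC, DSP, MACF1, AHNAK2, DST, PPL, SYNE2, SYNE1 and EPPK1, and again MACF1 (6.97 to 7.32 FPKM) and AHNAK2 (6.57 to 7.09 FPKM) overlapped. The 10 genes together held 100116 counts in D16 and 274495 in control. AHNAK made up 2.30% of these in D16 and 43.4% in control, and the other 9 summed to 97816 and 155400 counts.

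The FPKM of genes with many isoforms is spread over all their exons. The deposited values divide by a length close to the union of a gene's annotated exons, which is 42341 bp for DST, 40739 bp for MACF1, 46064 bp for SYNE1 and 31374 bp for SYNE2. Divided by the longest transcript instead, the level of DST was 15.4 per kilobase in D16 and 13.0 in control, of MACF1 9.20 and 12.3, of SYNE2 1.25 and 2.40, and of SYNE1 0.998 and 0.823. On that scale DST was above DSP (12.6) in D16. Ratios between the libraries do not depend on this choice. Genes that overlap the members held at most 54 counts in a library and at most 1.12% of a member's counts (SYNE2), and no source used here says whether counting used the strand.

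The closest relatives outside the set were low. EVPL, envoplakin, the partner of periplakin, was the only 1 of 5 that passed the filter, at 1.35 FPKM in D16 and 1.63 FPKM in control, a difference of -0.16. PRX, periaxin, an AHNAK-related protein, stood at 0.801 FPKM in D16 and 0.941 in control. The smaller nesprin SYNE3 stood at 0.555 FPKM in D16 and 1.41 in control and SYNE4 at 0.116 and 0.309, while EVPLL was listed at 0 in both libraries.

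Whether the low AHNAK value was shared by other very long messages was examined over all protein-coding genes whose longest annotated transcript is at least 10 kb, the members left out. Of 353 such genes that passed the filter, 4 (1.13%) were at least 2-fold lower in D16 and 2 (0.567%) at least 2-fold higher. Among all 10342 protein-coding genes that passed, 3.73% were lower and 3.34% higher by that measure. The share of long messages that were lower depended on the scale and on how length was taken. It was 5.10% with a pseudocount of 0.1 FPKM and 4.53% when centred on the median of genes averaging at least 5 FPKM. With TMM scaling of counts, which also dropped the pseudocount of 1 FPKM, it was 5.95%. The shares of all protein-coding genes were then 6.58%, 5.43% and 7.15%. For as many genes taken by coding length the share was 5.38%, above the 3.73% of all protein-coding genes. The median difference of the long messages was 0.03, with quartiles of -0.22 and 0.24, beside 0.09 for all protein-coding genes. The lowest long message was at -1.74, against -4.97 for AHNAK. The pseudocount limits how low a gene can lie by its control level, and none of these genes reached AHNAK's level in control. Without it, the 4 lower ones were 9.86-fold (APC), 4.39-fold (LAMA5), 3.66-fold (TANC2) and 2.83-fold (CCDC80) lower, beside 53.9-fold for AHNAK.

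**Figure D3:**
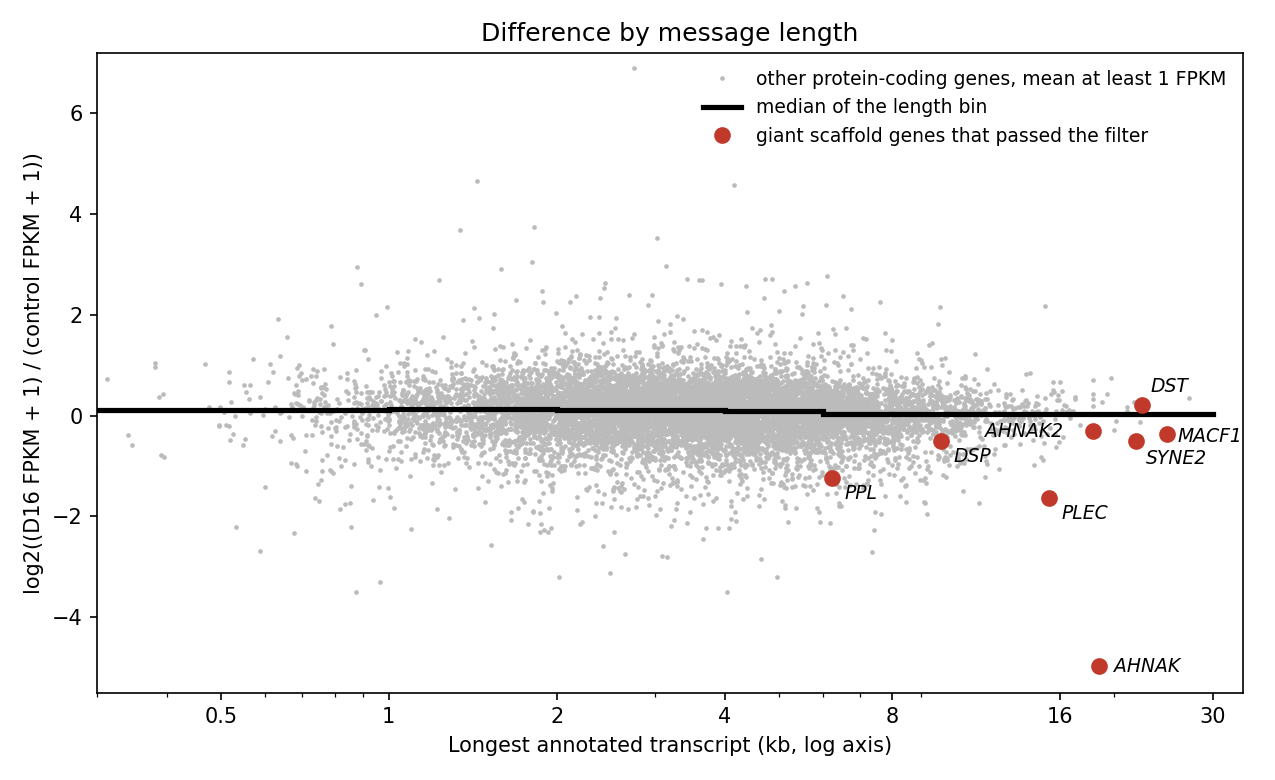
Difference of each protein-coding gene that passed the filter against the length of its longest annotated transcript (log axis); grey points are other genes, red points the 8 giant scaffold genes, and black lines the medians of the length bins. The medians stay between 0.02 and 0.12, and AHNAK at -4.97 lies below every other point.

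Across bins of transcript length the median difference ran from 0.12 under 1 kb (290 genes) and 0.12 at 1 to 2 kb (1519) to 0.11 at 2 to 4 kb (4033), 0.09 at 4 to 6 kb (2600), 0.03 at 6 to 8 kb (1085), 0.02 at 8 to 10 kb (440) and 0.03 at 10 kb and over (353). The share at least 2-fold lower was 8.97% under 1 kb, 3.82% at 1 to 2 kb, 3.27% at 2 to 4 kb and 3.54% at 4 to 6 kb. It was then 4.24% at 6 to 8 kb, 5.45% at 8 to 10 kb and 1.13% from 10 kb up. Across 10320 genes, which are not independent replicates, Spearman's rho of length and difference was -0.0709. Genes with a mean under 1 FPKM, many of them long, are not covered. Within the set, from the longest message down, the ratios were 1.21 (SYNE1, which failed the filter), 0.748 (MACF1), 1.18 (DST), 0.523 (SYNE2) and 0.0185 (AHNAK). They were then 0.787 (AHNAK2), 1.76 (EPPK1, which also failed it), 0.306 (PLEC), 0.686 (DSP) and 0.200 (PPL, the shortest). The set was chosen on this contrast, so nothing is read from that order.

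Length on the genome showed more of a gradient than length of the message. The median difference was 0.09 for genes spanning under 10 kb (2015 genes), 0.13 for 10 to 30 kb (3053), 0.11 for 30 to 100 kb (3483), 0.03 for 100 to 300 kb (1526) and -0.14 for 300 kb and over (243). In the last bin 64.2% of genes were below 0, beside 42.4% of all protein-coding genes. There 7 (2.88%) were at least 2-fold lower, beside 3.73% of all protein-coding genes. DST, MACF1, SYNE1 and SYNE2 span over 300 kb, at differences of 0.21, -0.36, 0.10 and -0.50. AHNAK, PLEC and PPL span 122694, 61588 and 54642 bases and so belong to bins with medians of 0.03 and 0.11.

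Long messages with the strongest signal gave the closest counterparts of AHNAK in control level. Length here is that of the longest annotated transcript, which need not be the form expressed. Coding lengths of the 5 named next were 1173 bp (NAP1L1), 9768 bp (MKI67), 7098 bp (SPTBN1), 9342 bp (CENPF) and 1236 bp (VEGFA), beside 17670 bp for AHNAK. The 5 highest by control FPKM were NAP1L1, a histone chaperone (29.6 FPKM in D16, 34.2 in control, -0.20), MKI67, the Ki-67 protein of dividing cells (21.1 and 32.1, -0.58), SPTBN1, beta-spectrin (24.0 and 30.8, -0.35), CENPF, a kinetochore protein (24.8 and 24.5, 0.01), and VEGFA, the angiogenic growth factor (13.6 and 23.6, -0.76). None was 2-fold lower. Over all 33 long messages with at least 10 FPKM in control, the differences ran from -0.83 to 0.73 with a median of -0.11. None of the 33 was at least 2-fold lower or higher.

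The 4 long messages at least 2-fold lower were LAMA5, a laminin chain (2.24 FPKM in D16, 9.85 in control, -1.74), APC, the Wnt pathway scaffold that binds microtubule ends (0.262 and 2.59, -1.51), TANC2, a postsynaptic scaffold (1.01 and 3.71, -1.23), and CCDC80, a matrix protein (1.42 and 4.02, -1.05). The 2 higher ones were HIPK2, a stress kinase (6.86 FPKM in D16, 0.746 in control, 2.17), and RC3H1, an RNA-binding ubiquitin ligase (2.06 and 0.315, 1.22). All 6 were at or below 10 FPKM in both libraries. With a mean of at least 5 FPKM, 98 long messages were left, and the 5 lowest were LAMA5, DOCK9 (4.22 and 9.16, -0.96), CDC42BPA (4.48 and 9.0, -0.87), the giant cadherin FAT1 (11 and 20.4, -0.83) and the collagen COL12A1 (5.21 and 9.82, -0.80). The 5 highest were WNK1, a kinase (8.78 and 4.18, 0.92), NQO2, a quinone reductase (17.4 and 9.02, 0.87), HSPA4L, a chaperone (7.76 and 4.21, 0.75), TNPO1, a nuclear import receptor (23.8 and 14, 0.73), and ABL2, a tyrosine kinase (13.7 and 8.53, 0.62), each given as D16 and control FPKM.

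AHNAK and AHNAK2 carry nearly all of their code in 1 exon, so genes with a coding exon of at least 4 kb were taken as a second set of counterparts. Of 51 that passed the filter, members left out, 3 (5.88%) were at least 2-fold lower, beside 3.73% of all protein-coding genes that passed. These were APC (-1.51), the kinase anchor AKAP12 (3.69 FPKM in D16, 11.3 in control, -1.39) and the splicing factor SRRM2 (5.59 and 13.2, -1.11). The chromatin regulator ANKRD11 was the 1 at least 2-fold higher, at 1.40. The median was 0.08. By coding length, 65 genes with at least 9 kb of coding sequence had a median of -0.07, and 1 of them (LAMA5; 1.54%) was at least 2-fold lower.

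Partners of the scaffolds were then examined, list by list. Beside each count of genes at least 2-fold lower stands the 3.97% of all genes that passed. Beside each count of genes below 0 stands the 42.4% of all protein-coding genes that passed. The lists were chosen with earlier results of these data known, so nothing is read from those comparisons. Hemidesmosome components, which plectin binds, had the lowest median of the lists examined: of 6 that passed the filter, 3 were at least 2-fold lower and the median was -1.18. ITGB4, the integrin subunit that plectin holds, stood at 5.66 FPKM in D16 and 24.0 in control (-1.91), and its partner ITGA6 at 12.6 and 39.1 (-1.57). LAMB3, a laminin chain, was at 99.9 FPKM in D16 and 97.1 in control (0.04), so the list did not differ throughout. All 9 intermediate filament genes that passed, keratins among them, were below 0, with a median of -0.73 and 2 at least 2-fold lower, KRT81 (10.2 and 54.7 FPKM, -2.31) and KRT19 (86.7 and 177, -1.02). VIM, vimentin, was at -0.95.

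Desmosome components differed less. Of 5 of 12 that passed, 3 were below 0 and none was 2-fold lower, with a median of -0.37: JUP, plakoglobin, stood at 5.25 FPKM in D16 and 10.1 in control (-0.83), PKP3 at 1.67 and 3.18 (-0.65), and DSG2 at 14.3 and 18.8 (-0.37). Of AHNAK's partners 5 of 7 passed, 4 below 0 and none 2-fold lower, with a median of -0.66. S100A10 stood at 245 FPKM in D16 and 450 in control (-0.87), ANXA2 at 131 and 208 (-0.66) and DYSF, dysferlin, at 3.01 and 5.32 (-0.66). The others that passed were the actins ACTB, at 535 FPKM in D16 and 540 in control (-0.01), and ACTG1, at 457 and 443 (0.04). S100A10 was thus 1.83-fold and ANXA2 1.59-fold lower, beside an AHNAK message that was 53.9-fold lower.

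**Figure D4:**
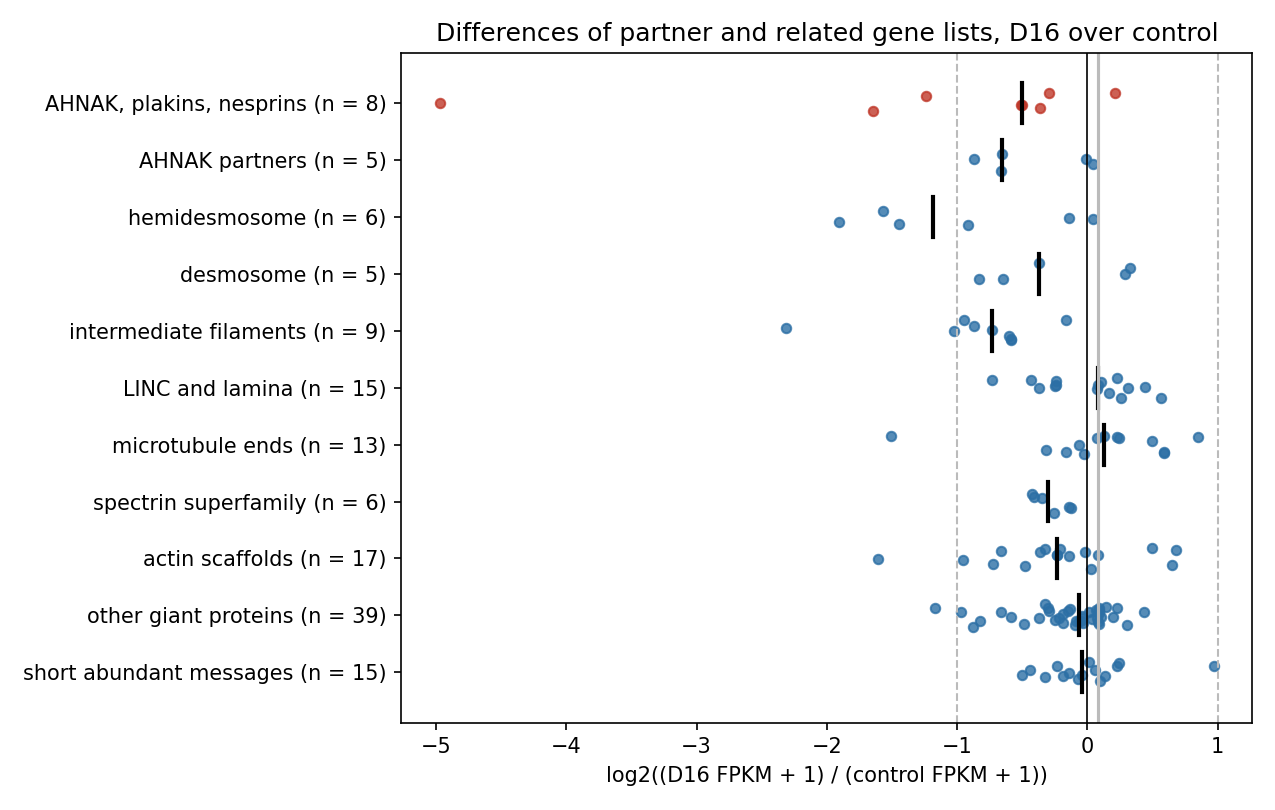
Differences of the genes of each list that passed the filter (points; D16 over control), with the list's median as a black bar; the grey line is the median of all genes that passed (0.08) and dashed lines mark 2-fold. The hemidesmosome genes (median -1.18) and intermediate filament genes (median -0.73) lie furthest left, while the lists for the LINC complex and lamina and for microtubule ends straddle 0.

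The nesprins' side was examined next. Of 15 genes of the LINC complex (nesprins' bridge to the nucleus) and the nuclear lamina that passed, 6 were below 0 and none was 2-fold lower, with a median of 0.08. LMNB1, lamin B1, stood at 19.2 FPKM in D16 and 32.5 in control (-0.73), and the torsin-related TOR1AIP2 at 5.31 and 3.26 (0.57) and TOR1B at 25.7 and 18.6 (0.44). Of 13 genes acting at microtubule ends, where spectraplakins work, 5 were below 0, with a median of 0.12. Besides APC, CAMSAP2 stood at 12.2 FPKM in D16 and 6.32 in control (0.85) and MAPRE1, the end-binding protein EB1, at 158 and 104 (0.59). All 6 spectrin and actinin genes that passed were below 0 but none by 2-fold, with a median of -0.30, ACTN4 at 123 and 165 (-0.43) and ACTN1 at 39.1 and 52.3 (-0.41) the lowest with SPTBN1.

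Of 17 actin-binding scaffolds that passed, 12 were below 0 and 1 at least 2-fold lower, MYH10, a non-muscle myosin (2.01 FPKM in D16, 8.14 in control, -1.60), and the median was -0.23. SVIL, supervillin, stood at 3.62 and 7.95 (-0.96) and MYO18A at 3.35 and 6.20 (-0.73). Of 62 other giant proteins 39 passed, with 24 below 0, 1 at least 2-fold lower and a median of -0.06. The lowest were ITPR3, a calcium release channel (14.1 and 32.9, -1.17), HSPG2, perlecan (2.56 and 6.0, -0.97), and LRP1, a lipoprotein receptor (1.04 and 2.76, -0.88). As a contrast in length, 15 short abundant messages had a median of -0.05, with PFN1, profilin, at 698 FPKM in D16 and 356 in control (0.97), RPLP0 at 184 and 261 (-0.50) and S100A6 at 924 and 1254 (-0.44). The median of all genes that passed was 0.08, and nothing is read from comparing these lists.

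The neighbourhood of AHNAK was searched for genes that differed with it. Within 500 kb, 34 genes passed the filter; 3 were 2-fold or more below control, 7 that far above it, and the median difference was 0.28. Of all genes that passed, 3.97% were that far below and 3.63% that far above. The nearest, EEF1G, a subunit of translation elongation factor 1, lies on the same strand with 3360 bases between the 2 genes and stood at 50.6 FPKM in D16 and 448 FPKM in control (-3.12). AP002990, a gene model with coding transcripts that overlaps EEF1G on the same strand, was higher, at 162 FPKM in D16 and 10.8 in control (3.79). Reads of such overlapping genes cannot be told apart where they share exons. Their summed counts were 85529 in D16 and 104672 in control, a ratio of 0.786 (0.772 to 0.800), so the sum was much less apart than either gene.

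Adding AHNAK and TUT1, which AP002990 also overlaps, gave 88122 counts in D16 and 224322 in control, a ratio of 0.378 (0.372 to 0.384). These 4 genes were summed after their values were seen. AHNAK itself overlapped 0 genes on its own strand, and its difference stayed at -4.97 when same-strand overlapping genes were summed. Whether any reads were exchanged between AHNAK and these neighbours was not tested. The 2 genes that overlap AHNAK, both on the opposite strand, held 3 counts in D16 and 2 in control. The other 2 neighbours that were lower were the small nucleolar RNAs SNORD22 and SNORD27, with 1 count each in D16. Of the higher ones, named after their values were seen, FTH1, ferritin heavy chain, stood at 2302 FPKM in D16 and 358 in control (2.68), SLC3A2, an amino acid transporter subunit, at 84.2 and 26.8 (1.62) and NXF1, an mRNA export factor, at 24.0 and 10.5 (1.12). AP002990, BEST1, SNORD30 and SNORD26 were the others, and SNORD30 and SNORD26 had 1 count each in control.

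**Figure D5:**
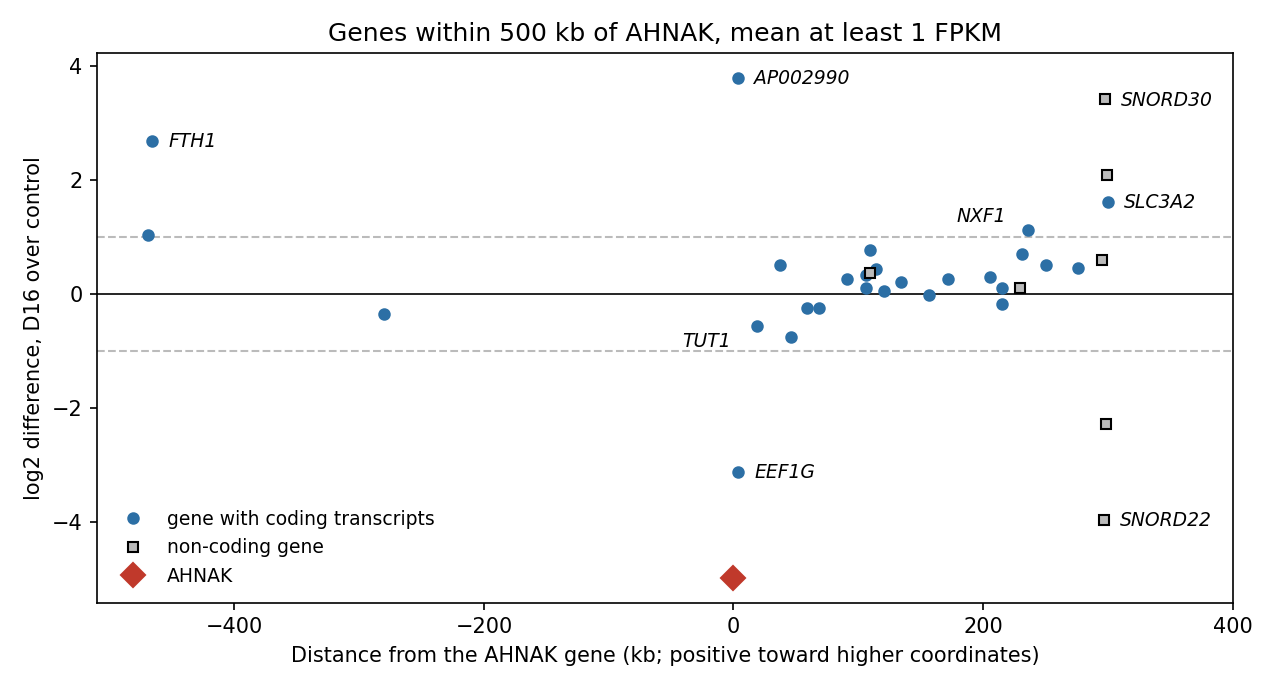
Difference of each gene within 500 kb of AHNAK that passed the filter against its distance from AHNAK (kb); circles are genes with coding transcripts, squares non-coding genes, the diamond AHNAK, and dashed lines 2-fold. EEF1G (-3.12) and AP002990 (3.79), which overlap each other, lie on opposite sides beside AHNAK, and most genes from 30 to 300 kb lie within 2-fold.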

How the data were processed

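RNA of 1 D16 and 1 control culture was sequenced as paired ends of 150 bases. Per the submitters' processing notes, the tools were StringTie 1.3.4d, HISAT2 2.0.4 and cutadapt 1.9; no build is named in the sources used here. FPKM values and estimated counts were made by the authors and deposited per gene, per the file headers; the counting method is likewise not given. Absent genes, listed at 0.0001 FPKM, were read as 0. FPKM ratios followed count ratios by a factor of 0.962 in 98.4% of 13018 genes, within 1%. In control, 1308 genes had 4 counts, against 473 with 3 and 254 with 5, and 1 read pair was therefore taken as about 4 counts. The authors' log2 values and p-values in the deposited table of gene groups were not used, only gene names; 8 per-sample columns were left out.

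Lengths came from GENCODE 29 (GRCh38), in which 96.3% of gene identifiers were found, 72.7% of them with the same start and end; the authors' FPKM denominators were within 5% of the union of exons for 86.2% of 8324 genes. Ratio intervals are exact (Clopper-Pearson) bounds on read pairs times 0.962, and level intervals are exact Poisson bounds. Printed folds carry no pseudocount. Tools were Python 3.11.15, pandas 2.3.3, scipy 1.17.1 and, for the TMM (trimmed mean of M values) alternative alone, edgeR 4.0.16; promoters are RefSeq's.

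The members and lists were chosen with earlier results of these data known. Every member is named, with up to 3 genes of the largest difference from each other list, the 5 lowest and 5 highest long messages among those averaging 5 FPKM or more, and the 5 long messages highest in control; other names were chosen after their values were seen. A few genes that this rule names are not reported here. Alternatives tried were other pseudocounts, filters, folds, scalings, sums over overlapping genes and definitions of length.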

Additional observations from a re-analysis of the deposited data

How the results depend on the processing

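With 1 library per group, depth limits EPPK1, SYNE1, SYNE2 and PPL, and the spread between cultures is unknown. No paired analysis was possible because each group has a single library. The count of members at least 2-fold lower was 3 under every alternative except a pseudocount of 5 FPKM and a mean of at least 5 FPKM, where it was 2. The members' median was -0.70 with a pseudocount of 0.1 FPKM, -0.32 with 5 FPKM and -0.37 with equal sums of FPKM. It was -0.65 when centred on the median of genes averaging at least 5 FPKM, and -0.76 with TMM scaling of counts. The TMM setting also dropped the pseudocount of 1 FPKM, and it moved the median of all genes that passed by -0.002. Equal sums moved the median of all genes up by 0.15 and centring moved it by -0.15, and the long messages' median became 0.17 and -0.12. By a gene span of at least 300 kb, an alternative added after seeing the data, it was -0.14. The share of long messages at least 2-fold lower was 5.10% with a pseudocount of 0.1 FPKM, 0.283% with 5 FPKM, 4.53% when centred, 5.95% with TMM, 9.63% at 1.5-fold, 3.53% from 8 kb, 5.38% for as many genes taken by coding length, 0 from 15 kb (51 genes) and 2.88% by gene span; the cut at 15 kb and the medians without AHNAK were also added after seeing the data. All protein-coding genes moved too, to 6.58%, 1.21%, 5.43% and 7.15% for the first 4 of these and 10.4% at 1.5-fold. Over 7 alternatives AHNAK lay between -5.77 and -3.61 and PLEC between -1.79 and -1.43, while PPL lay between -2.32 and -0.46. SYNE1 (-0.05) and EPPK1 (-0.14) changed sign under centring alone, and no other member did. The cause of these shifts was not tested.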
